A study of Mus musculus with 12 samples.

Results

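Hmcn1, the gene of the extracellular matrix protein hemicentin 1, was read by 77 separate transcript clusters on the arrays of this study, more than any other gene in the table. A transcript cluster is the unit of the Affymetrix Mouse Gene 1.0 ST array: a set of probes that is summarised into 1 value. The 77 clusters are all those to which the platform annotation gives Hmcn1 as the only gene symbol, out of 21789 clusters with exactly 1 symbol and 35556 in the whole table. They make up 0.353% of the 21789. The paralog Hmcn2 was read by 1 cluster. The clusters were chosen by their gene symbol, and the gene was selected on expression values of these same arrays, with earlier results in view. Which of its values led to the choice is not recorded, so its levels and its differences between groups are given throughout as a description that supports nothing else.

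The cells were fibro/adipogenic progenitors (FAPs), connective tissue progenitors of skeletal muscle, taken from uninjured hindlimbs of wild-type male C57/Bl6 mice aged 8 to 12 weeks and kept in culture. There were 12 arrays in 6 groups of 2, which combined 3 antisense oligonucleotides (AMOs in the labels) with 0 or 50 uM of the growth factor PDGF-AA, as the labels give the dose. The pA AMO is directed at a polyadenylation site inside an intron of the PDGF receptor gene Pdgfra, the 5'ss AMO at an intronic 5' splice site of the same gene, and the control AMO serves as the reference. After 2.5 days of growth all groups received 10 µM AMO for 48 hours and again for a further 48 hours, the last period with or without PDGF-AA, and 100 ng of RNA was labelled for each array. Each replicate pooled cells of 2 mice, so the spread between replicates is one between pools.

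Hemicentins are very large secreted proteins of the immunoglobulin superfamily. Hemicentin 1, also called fibulin-6, starts with a von Willebrand A domain, goes on with a long row of immunoglobulin repeats, and ends with a nidogen-like G2 domain and EGF repeats of the fibulin type. The family was first known from him-4 of the nematode, where hemicentin joins neighbouring tissues across their basement membranes, and fibroblasts are a known source of hemicentin 1 in mammals.

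The promoters of both genes are shown as a description of their sequence, and their part in the levels on these arrays was not tested. The sequences are RefSeq's for the build GRCm38.p6, from 250 bases before to 50 bases after the annotated start, written 5′ to 3′ on the strand of the gene. Hmcn1 lies on the minus strand (chr1:150993386-150993685) and Hmcn2 on the plus strand (chr2:31314082-31314381). Capitals mark every match, on either strand, to 4 motifs that were searched: the CCAAT box (CCAAT), the GC box (GGGCGG), the TATA box (TATAAA) and the AP-1 site (TGACTCA).
Hmcn1: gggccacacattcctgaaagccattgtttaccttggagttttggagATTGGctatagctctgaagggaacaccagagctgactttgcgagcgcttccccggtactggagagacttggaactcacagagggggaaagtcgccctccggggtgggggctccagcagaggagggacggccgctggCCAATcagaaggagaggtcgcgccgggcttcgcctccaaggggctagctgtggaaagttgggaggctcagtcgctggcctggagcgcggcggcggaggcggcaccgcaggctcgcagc
Hmcn2: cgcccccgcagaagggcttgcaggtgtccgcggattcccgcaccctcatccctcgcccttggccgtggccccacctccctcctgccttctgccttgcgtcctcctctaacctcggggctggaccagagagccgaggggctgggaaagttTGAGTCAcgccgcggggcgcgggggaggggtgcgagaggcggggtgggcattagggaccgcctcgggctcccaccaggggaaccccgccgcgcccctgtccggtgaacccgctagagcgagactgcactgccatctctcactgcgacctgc
The Hmcn1 window holds CCAAT on its own strand at position -68 and on the opposite strand at -204, and the Hmcn2 window holds the AP-1 letters on the opposite strand at -101. No motif of the 4 is in both windows. Of all 27025 promoters in the same table, 37.9% hold CCAAT, 35.9% GGGCGG, 14.2% TATAAA and 5.17% TGACTCA. Hmcn1's window is 63.3% G and C and Hmcn2's is 70.7%, against a median of 52.7% over all promoters, which puts them at the 79.4th and 92.2nd percentile. A match is a description of the letters, not a site that was shown to be used.

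The values are log2 expression values, normalized together over the 12 arrays. The array medians lay between 6.04 and 6.23 over all clusters of the table and between 6.68 and 6.73 over the single-symbol clusters. Over all clusters every array numbered replicate 1 had a median of 6.14 or more. Every array numbered replicate 2 had one of 6.10 or less. A log2 value depends on the probes of its cluster as well as on the RNA, so levels of different clusters are not amounts that can be set against each other. Marker lists are given by their range and by how many members lay above a mark, where the lowest 40 percent of single-symbol clusters end. That mark is the same for all clusters whatever their probes, so the counts are a rough description and do not show expression. All 9 FAP markers measured lay above that mark, from 7.07 for Pi16 to 13.3 for the collagen-binding proteoglycan Dcn, with Pdgfra at 12.8. Of 12 muscle genes 10 did, from 4.74 for Myf5 to 10.1 for Acta1, as did all 6 adipocyte genes. Of 8 macrophage and leukocyte genes 3 did, among them Cd68 at 7.23 and Lyz2 at 6.79, while the pan-leukocyte gene Ptprc lay at 5.01. The counts were 3 of 7 endothelial, 4 of 7 smooth muscle and pericyte, 4 of 6 tendon and 2 of 3 Schwann cell genes. In RNA from whole cultures, fewer cells of a type and less RNA per cell cannot be told apart.

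Averaged over the 77 clusters and the 12 arrays, Hmcn1 stood at 6.31, at the 44.6th percentile of 19938 genes. Means of single clusters ran from 3.90 to 7.64, with a median of 6.40 and an SD of 0.63 between clusters. The lowest 40 percent of single-symbol clusters end at 6.10, and 58 of the 77 Hmcn1 clusters lay above that mark. Cluster means ran from the 8.79th to the 63.7th percentile of the single-symbol clusters. On every array the Hmcn1 mean lay below the median of those clusters, which was 6.68 to 6.73.

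The brightest cluster, 10358537, read 7.66 and 7.47 with control AMO alone (replicates 1 and 2) and 7.58 and 7.32 with control AMO and PDGF-AA. It read 7.82 and 7.55 with pA AMO alone and 8.02 and 7.79 with pA AMO and PDGF-AA, and with 5'ss AMO 7.96 and 7.32 without and 7.68 and 7.46 with PDGF-AA. Its 3 sets of 4 arrays overlapped, although its single highest array was pA AMO with PDGF-AA replicate 1. The next brightest were 10358555, with a mean of 7.30 and a range of 7.00 to 7.69, and 10358529, with a mean of 7.16 and a range of 6.83 to 7.49.

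The dimmest cluster, 10358587, read 3.78 and 3.44 with control AMO alone and 3.31 and 3.59 with PDGF-AA added. With pA AMO it read 3.85 and 4.43 alone and 4.40 and 4.35 with PDGF-AA, and with 5'ss AMO 3.81 and 3.97 alone and 3.97 and 3.92 with PDGF-AA. All 4 control arrays lay below all 8 others, by a narrow margin against the lowest 5'ss array. The next dimmest were 10358627, with a mean of 4.26 and a range of 4.04 to 4.54, and 10358629, with a mean of 4.84 and a range of 4.51 to 5.28.

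**Figure D1:**
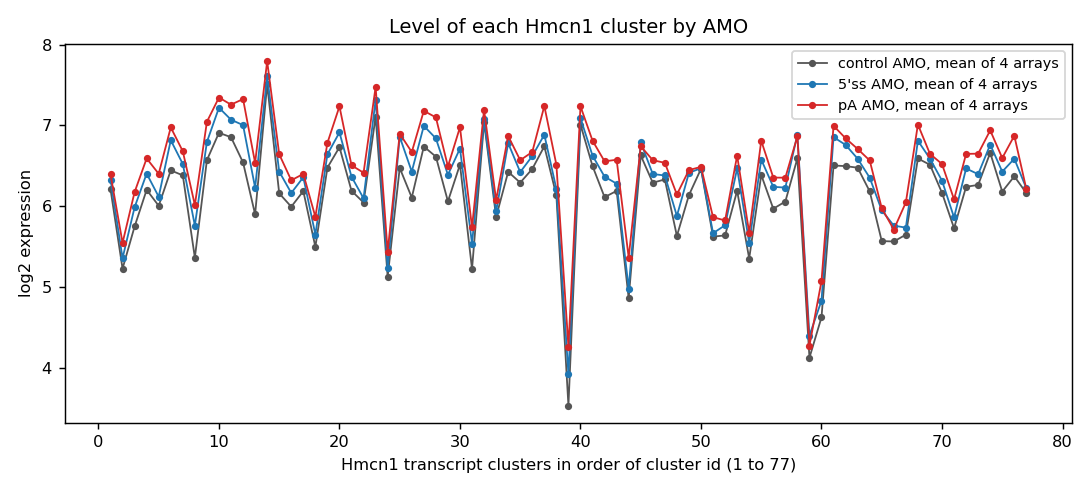
Mean log2 expression of each of the 77 Hmcn1 clusters (vertical axis) in order of cluster id (horizontal axis), for control, 5'ss and pA AMO, each point being the mean of 4 arrays. The cluster means over all arrays run from 3.90 to 7.64, levels that depend on the probes of each cluster as well as on the RNA. The pA points lie above the control points at all 77 clusters.

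The cluster ids run from 10358490 to 10358672, and 74 of the 76 steps between neighbouring ids are steps of 2. The other steps are 23 and 11, and no cluster of another gene in the table lies between the first and the last. Among 218 genes with 1 cluster on the minus strand of chromosome 1 near these ids, 216 of 217 steps in id were also steps up in RefSeq's order of genes. The order of ids therefore follows the order of genes along the chromosome there. The files do not give the exon that a cluster reads, so ids are used here as an order and not as positions in the transcript.

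Across the 12 arrays the 77 clusters went up and down together. The Pearson correlation between pairs of clusters had a median of 0.68, with the middle 50 percent of pairs between 0.56 and 0.78, and 99.4% of pairs were above 0. Among the 26 dimmest clusters the median was 0.66 and among the 26 brightest 0.73. These correlations over 12 arrays are a description, since all clusters share the same RNA, array and normalization.

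Each cluster was also set against the mean of the other 76, where the correlation had a median of 0.83. It was highest for 10358527, at 0.97, and lowest for the last cluster by id, 10358672, at 0.29. That last cluster read 6.29 and 5.92 with control AMO alone, 6.36 and 6.07 with control AMO and PDGF-AA, 6.26 and 6.12 with pA AMO alone, and 6.38 and 6.09 with pA AMO and PDGF-AA. With 5'ss AMO it read 6.23 and 6.14 alone and 6.37 and 6.14 with PDGF-AA. All 6 arrays numbered replicate 1 lay above all 6 numbered replicate 2, whatever the AMO, a pattern that the other clusters' mean did not have. The first cluster by id, 10358490, read 6.37, 5.99, 6.33 and 6.15 with control AMO and 6.29, 6.16, 6.63 and 6.50 with pA AMO, each in the order of alone and then with PDGF-AA.

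**Figure D2:**
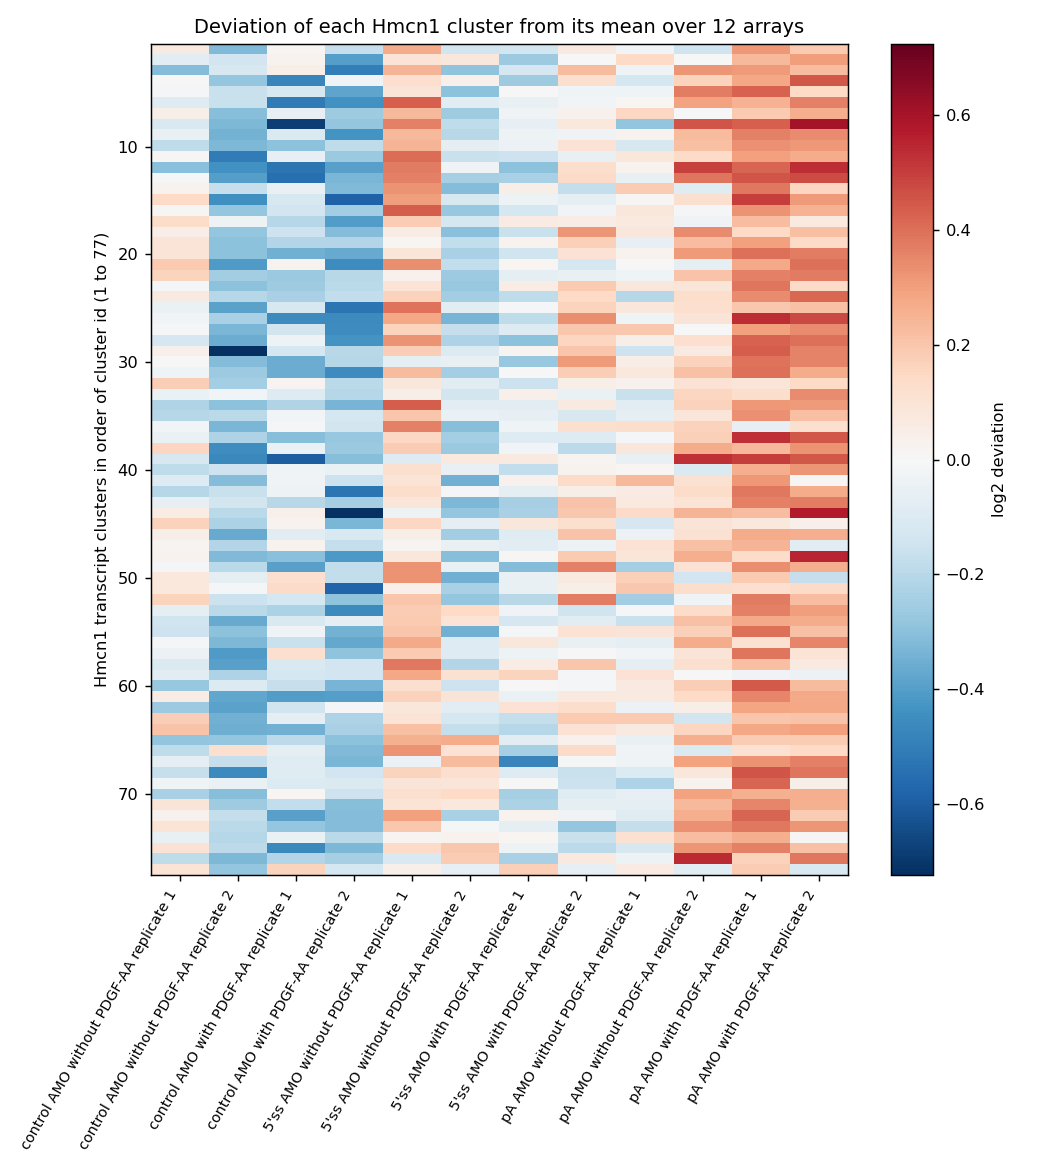
Deviation of each Hmcn1 cluster (rows, in order of id) from its own mean over the 12 arrays (columns), on the log2 scale, red for higher and blue for lower. Both arrays of pA AMO with PDGF-AA are red over nearly the whole gene, and the array that was highest for 37 of the 77 clusters is replicate 1 of that group.

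The mean over the 77 clusters gave 1 value of Hmcn1 per array. With control AMO it was 6.28 and 6.04 alone and 6.15 and 6.02 with PDGF-AA. With pA AMO it was 6.31 and 6.47 alone and 6.61 and 6.57 with PDGF-AA. With 5'ss AMO it was 6.49 and 6.20 alone and 6.23 and 6.36 with PDGF-AA. All 4 pA arrays lay above all 4 control arrays, by 0.026 at the closest pair, while the 5'ss arrays overlapped with both.

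By group, pA AMO with PDGF-AA was highest, at 6.59 ± 0.029 (SD, n = 2). It was followed by pA AMO alone at 6.39 ± 0.11, 5'ss AMO alone at 6.34 ± 0.21, 5'ss AMO with PDGF-AA at 6.30 ± 0.097, control AMO alone at 6.16 ± 0.17 and control AMO with PDGF-AA at 6.08 ± 0.088. The pooled SD within groups was 0.13. The gap below the highest group, 0.20, was larger than that SD, the gap between 5'ss AMO with PDGF-AA and control AMO alone, 0.13, was about equal to it, and the other 3 gaps, 0.044, 0.048 and 0.079, were smaller.

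Cluster by cluster the same arrays stood at the ends. Of the 77 clusters, 37 had their highest value on pA AMO with PDGF-AA replicate 1, 20 on replicate 2 of that group and 10 on 5'ss AMO alone replicate 1. The lowest value was on control AMO with PDGF-AA replicate 2 for 30 clusters, on control AMO alone replicate 2 for 25 and on control AMO with PDGF-AA replicate 1 for 13.

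**Figure D3:**
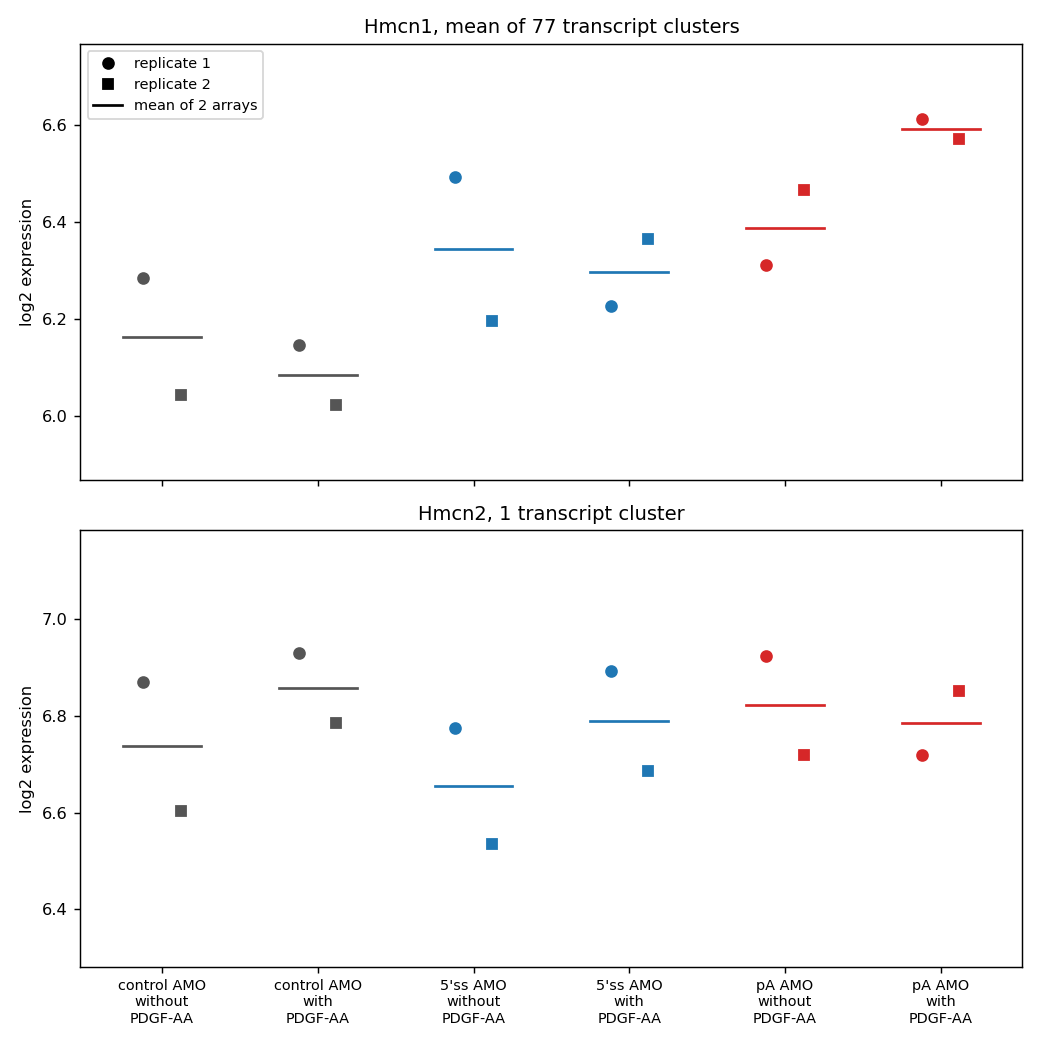
Log2 expression of Hmcn1 (mean of 77 clusters, upper panel) and Hmcn2 (1 cluster, lower panel) on every array, by group, with circles for replicate 1, squares for replicate 2 and a line for the mean of 2 arrays. For Hmcn1 the 4 pA arrays, 6.31 to 6.61, lie above the 4 control arrays, 6.02 to 6.28. For Hmcn2 the arrays of all AMOs overlap.

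The first comparison asks how Hmcn1 stood with the AMO against the intronic polyadenylation site, averaged over both PDGF-AA doses. All 77 clusters were higher with pA than with control AMO, against 45.2% of all single-symbol clusters. The median of the 77 differences was 0.38 and their range 0.03 to 0.79 on the log2 scale. For the gene mean the difference was 0.37 (SE 0.092, 4 arrays against 4), a 1.29-fold higher value. It lay at the 99.8th percentile of the differences of all genes, and its p-value was the 26th smallest of 19938.

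The difference did not pass correction over the whole table. In limma, a linear model with moderated errors, the adjusted p of the gene mean was 1.00, and 0 of 77 clusters were called at an adjusted p under 0.05, as were 0 (0%) of all 21789. At an unadjusted p under 0.05 there were 60 of 77 Hmcn1 clusters, against 3.25% of all clusters. With the replicate number as a block in the model the count was 65, against 9% of all, and 0 were called. Since the 77 clusters read the same RNA, this is 1 gene's difference read many times and not 60 results. The 60 were 8.47% of the 708 clusters at that level in the whole table, and without Hmcn1 the share over all clusters was 2.98%. Clusters of 1 gene thus changed a count over the whole table that is made from clusters.

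The share of genes above 0 differed by the length of the gene. Lengths from RefSeq (GRCm38.p6) were found for 99.8% of the genes above the 40 percent mark, 11789 genes, and Hmcn1 lay at their 99.0th percentile. Between pA and control AMO 35.2% of the shortest 10% of these genes and 63.7% of the longest 10% were above 0, with medians of -0.03 and 0.03. Between 5'ss and control AMO the shares were 44.1% and 64.0%. Among the 1179 longest genes, the Hmcn1 difference lay at the 99.7th percentile for pA and at the 92.8th for 5'ss AMO. The part of length in the Hmcn1 differences was not tested.

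The cluster with the largest difference, 10358533, read 6.65 and 6.52 with control AMO alone and 6.43 and 6.56 with PDGF-AA added. With pA AMO it read 6.98 and 7.45 alone and 7.38 and 7.49 with PDGF-AA, so that all 4 pA arrays lay above all 4 control arrays. The difference was 0.79 (SE 0.14, limma adjusted p = 0.898). The cluster with the smallest difference, 10358609, read 6.55, 6.41, 6.59 and 6.30 with control AMO and 6.64, 6.33, 6.66 and 6.30 with pA AMO, in the order of alone and then with PDGF-AA. There the arrays of both AMOs overlapped, and the difference was 0.03 (SE 0.15). In the dimmest cluster, 10358587, the difference was 0.73 (SE 0.13), and in the brightest, 10358537, it was 0.29 (SE 0.14).

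In 30 of the 77 clusters all 4 pA arrays lay above all 4 control arrays, against 0.945% of all single-symbol clusters. These 30 were 14.6% of the 206 such clusters in the table. Within replicate 1 the gene mean was higher with pA by 0.25, and within replicate 2 by 0.49, with 74 and 76 of the 77 clusters above 0. The sign was thus the same at both replicate numbers, and the size differed. The labels do not say what arrays of the same number share.

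The same question was asked of the 5'ss AMO, which is directed at the splice site of the intron. All 77 clusters were again higher than with control AMO, with a median difference of 0.18 and a range of 0.01 to 0.46, against 46.6% of all clusters above 0. The gene mean differed by 0.20 (SE 0.092), a value 1.15-fold that of control AMO. Without 5'ss AMO alone replicate 1 it was 0.12, with a median over clusters of 0.11 and 68 clusters above 0, and without replicate 2 of that group it was 0.27. The brightest cluster in place of the mean gave 0.10. The adjusted p in limma was 1.00, and 0 of 77 clusters were called (0% of all clusters). Both comparisons use the same 4 control arrays, so their values stand side by side and neither is a second reading of the other.

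At an unadjusted p under 0.05 there were 20 clusters with 5'ss AMO, against 4.80% of all clusters. Under the block there were 24, against 12.4% of all, and 0 Hmcn1 clusters were called, against 0.0138% of all. The count without the block moved when single arrays were left out. Without 5'ss AMO alone replicate 2 the median over clusters was 0.25, beside 0.11 without its replicate 1. In 7 clusters all 4 5'ss arrays lay above all 4 control arrays, against 1.26% of all clusters. The largest difference was again in 10358533, where the 5'ss arrays read 7.33 and 6.93 alone and 6.66 and 7.08 with PDGF-AA, a difference of 0.46 (SE 0.14). The smallest was again in 10358609, at 0.01 (SE 0.15). The smallest p was that of 10358648, where the difference was 0.38 (SE 0.081, limma adjusted p = 0.601).

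Between the pA and the 5'ss AMO, 72 of 77 clusters were higher with pA, with a median of 0.18, against 49.5% of all clusters above 0. The gene mean differed by 0.17 (SE 0.092, limma adjusted p = 1.00), and 0 clusters were called (0% of all), with 13 at an unadjusted p under 0.05 against 3.47% of all. Without 5'ss AMO alone replicate 2 the difference was 0.096, and without replicate 1 of that group it was 0.24. In the blocked model 21 clusters had an unadjusted p under 0.05, against 8.51% of all, and 0 were called, against 0.0275% of all. The count of 13 without the block moved when single arrays were left out. In 1 cluster all 4 pA arrays lay above all 4 5'ss arrays, against 0.996% of all clusters. The differences ran from -0.12 in the dim cluster 10358627 to 0.38 in 10358597.

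**Figure D4:**
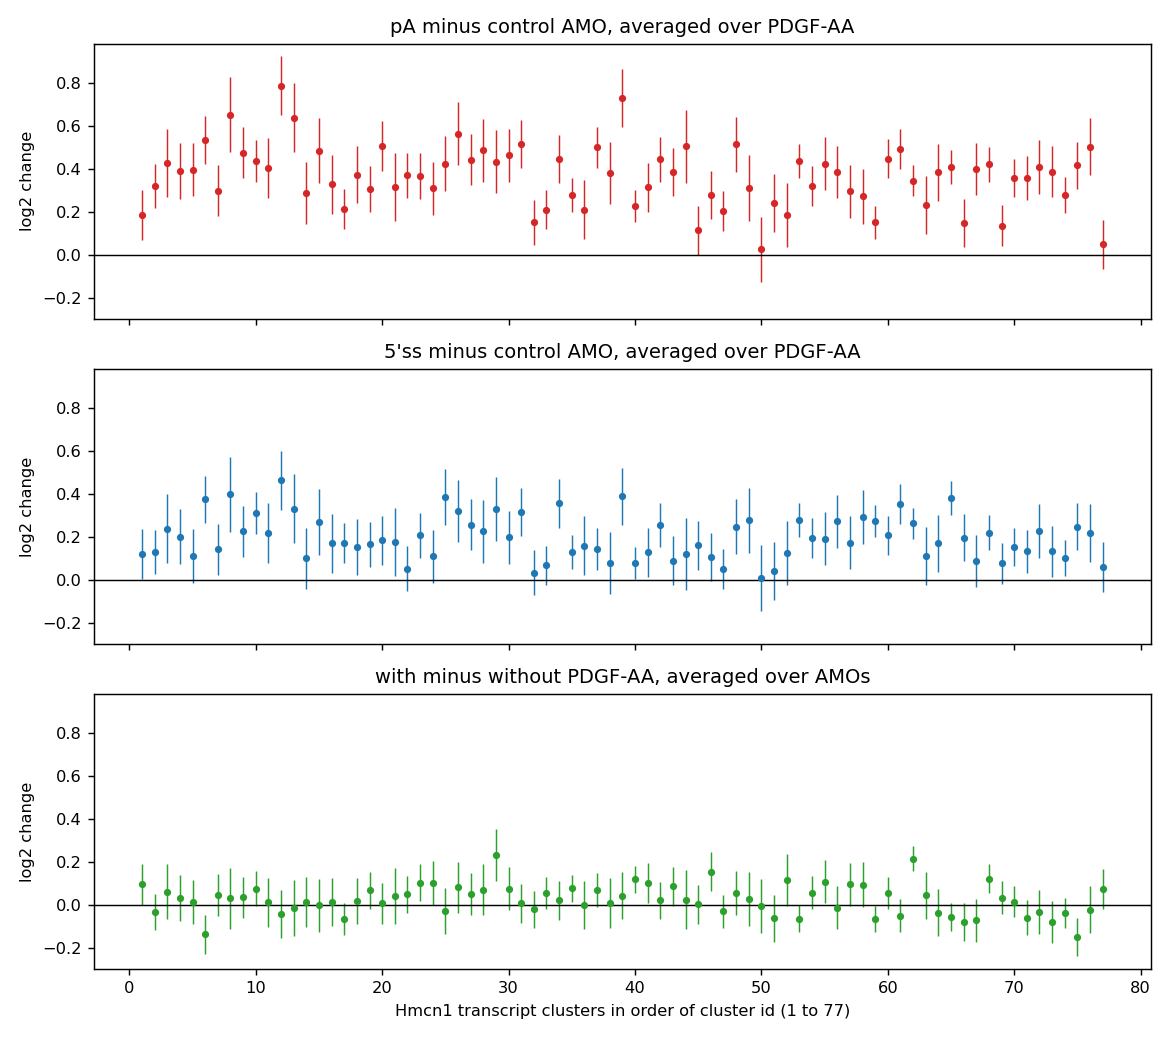
Log2 difference of each Hmcn1 cluster (vertical axis, point with its standard error) in order of cluster id, for pA minus control AMO, 5'ss minus control AMO and PDGF-AA averaged over AMOs. All 77 points lie above 0 in the upper and the middle panel, with medians of 0.38 and 0.18, while in the lower panel they lie on both sides of 0, 51 above and 26 below.

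The AMO differences were then taken at each PDGF-AA dose. With PDGF-AA, the gene mean was higher with pA than with control AMO by 0.51 (SE 0.13, limma adjusted p = 0.971), a 1.42-fold value, and all 77 clusters lay above 0, against 44.1% of all, with a median of 0.51 and a range of 0.02 to 1.00. The values behind it were 6.61 and 6.57 against 6.15 and 6.02, and both replicates gave a similar size, 0.47 and 0.55. Without PDGF-AA it was higher by 0.22 (SE 0.13, limma adjusted p = 1.00), with 73 clusters above 0, against 49.9% of all, and a median of 0.25. There replicate 1 gave 0.026 and replicate 2 gave 0.42, so the size without PDGF-AA rested on replicate 2. Without control AMO alone replicate 2 the difference was 0.10, and without replicate 1 of that group it was 0.35.

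Both pA arrays lay above both control arrays in 71 clusters with PDGF-AA, against 12.3% of all clusters, and in 41 without it, against 10.5%. At an unadjusted p under 0.05 there were 60 clusters with PDGF-AA (4.89% of all clusters) and 10 without it (1.49%), and 0 were called at either dose (0% of all). Blocked on the replicate number, these counts were 63, against 13.5% of all, and 16, against 4.62%. Without the block both counts moved when single arrays were left out. With PDGF-AA the difference of the gene mean was 0.45 without control AMO with PDGF-AA replicate 2. Without replicate 1 of that group it was 0.57. The largest difference with PDGF-AA was in 10358525, which read 5.03 and 5.43 with control AMO and 6.15 and 6.32 with pA AMO, a difference of 1.00 (SE 0.25). The smallest was in the last cluster by id, 10358672, at 0.02.

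With 5'ss AMO the gene mean was higher than with control AMO by 0.18 (SE 0.13) without PDGF-AA and by 0.21 (SE 0.13) with it, and neither passed in limma (adjusted p = 1.00 and 0.865). The clusters above 0 were 67 and 71 of 77, against 51% and 44.4% of all, with medians of 0.19 and 0.22. In limma 0 were called (0% of all), and 11 and 9 had an unadjusted p under 0.05, against 2.07% and 6% of all. In the model with the block they were 14, against 4.89% of all, and 12, which is 15.6% of the 77 and equals the 15.6% of all clusters. The block called 0 Hmcn1 clusters at either dose, against 0.00459% of all without and 0.101% with PDGF-AA. The counts without the block moved when single arrays were left out. Without 5'ss AMO plus PDGF-AA replicate 2 the difference with PDGF-AA was 0.14, and without replicate 1 of that group it was 0.28. Both 5'ss arrays lay above both control arrays in 23 clusters without PDGF-AA, against 12.6% of all, and in 40 with it, against 12.5%. Without 5'ss AMO alone replicate 1 the difference without PDGF-AA was 0.032, with 41 clusters above 0, and without replicate 2 of that group it was 0.33, with 77.

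The next question is what PDGF-AA itself did to Hmcn1. Averaged over the 3 AMOs, the gene mean differed by 0.025 (SE 0.076, 6 arrays against 6, limma adjusted p = 1.00). Of the 77 clusters 51 were above 0, against 50.8% of all clusters, and the median was 0.025. In limma 0 clusters were called (0% of all), and 1 had an unadjusted p under 0.05, against 3.39% of all. Under the block that count was also 1, against 8.02% of all, and 0 Hmcn1 clusters were called, against 0.0964% of all. The number above 0 was 29 without 5'ss AMO alone replicate 2 and 30 without control AMO alone replicate 2, where the sign of the gene mean turned as well. In 0 clusters did all 6 arrays with PDGF-AA lie above all 6 without it, against 0.165% of all. The differences ran from -0.15 in 10358668 to 0.23 in 10358567.

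Within AMOs the values were unequal. With control AMO the gene mean was lower with PDGF-AA, at -0.079 (SE 0.13), and 23 of 77 clusters were above 0, against 53.3% of all. With pA AMO it was higher, at 0.20 (SE 0.13), and 69 clusters were above 0, against 47.4% of all. With 5'ss AMO it was at -0.048 (SE 0.13), and 33 were above 0, against 48% of all. None of the 3 passed (limma adjusted p of 0.987, 1.00 and 1.00), and 0 clusters were called in each (0% of all), with 3, 9 and 4 at an unadjusted p under 0.05, against 4.81%, 2.37% and 1.64% of all. With the replicate block they were 5, 10 and 4, against 12.7%, 5.9% and 4.53% of all. The counts without the block moved when single arrays were left out.

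The replicates differed in these values. With 5'ss AMO the PDGF-AA difference was -0.27 in replicate 1, where 4 clusters were above 0, and 0.17 in replicate 2, where 60 were. With pA AMO it was 0.30 and 0.11, with 74 and 57 clusters above 0. With control AMO it was -0.14 and -0.021, with 23 and 37 above 0. The signs were the same in both replicates with pA and control AMO and opposite with 5'ss AMO. The sign with control AMO turned to 0.042 without control AMO alone replicate 1, and the sign with 5'ss AMO to 0.10 without 5'ss AMO alone replicate 1. The 0.20 with pA AMO was 0.13 without pA AMO alone replicate 1 and 0.28 without its replicate 2. The clusters above 0 ran from 10 (control AMO alone replicate 2 left out) to 47 (its replicate 1) with control AMO, and from 11 (5'ss AMO alone replicate 2) to 55 (its replicate 1) with 5'ss AMO.

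Cluster 10358561 had the largest PDGF-AA difference with pA AMO, 0.48 (SE 0.20). It read 6.37 and 6.49 with pA AMO alone and 6.93 and 6.88 with PDGF-AA. With control AMO it read 6.38 and 6.16 alone and 5.94 and 5.94 with PDGF-AA, a difference of -0.33 (SE 0.20), and with 5'ss AMO 6.68 and 6.07 alone and 6.22 and 6.74 with PDGF-AA. The pA arrays separated by dose in 1 direction and the control arrays in the other, while the 5'ss arrays did not separate. With pA AMO both arrays with PDGF-AA lay above both without it in 45 Hmcn1 clusters and below them in 2, against 11.4% and 12.3% of all clusters.

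The differences between these PDGF-AA effects were tested directly. The effect on the gene mean was larger with pA than with control AMO by 0.28 (SE 0.18), larger with pA than with 5'ss AMO by 0.25 (SE 0.18), and larger with 5'ss than with control AMO by 0.032 (SE 0.18). Within replicates 1 and 2 these were 0.44 and 0.13, 0.57 and -0.063, and -0.13 and 0.19, so that the sign was the same in both only for pA against control AMO. The 0.25 was 0.10 without 5'ss AMO alone replicate 1 and 0.40 without its replicate 2, and the 0.28 was 0.16 without control AMO alone replicate 1. Each had an adjusted p of 1.00 in limma, and 0 clusters were called (0% of all clusters in each). The clusters above 0 were 68, 67 and 43 of 77, against 47.8%, 50.2% and 46.2% of all, with 9, 12 and 3 at an unadjusted p under 0.05, against 2.59%, 1.92% and 2.95% of all clusters. With the replicate block these were 10, 13 and 5, against 8.55%, 5.31% and 7.94% of all. The 43 above 0 ran from 21 to 59 without replicates 2 and 1 of 5'ss AMO alone. The counts without the block also moved when single arrays were left out. The 0.28 was 0.40 without control AMO alone replicate 2. The 0.032 was -0.12 and 0.18 without replicates 2 and 1 of 5'ss AMO alone.

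Along the order of ids the AMO differences had similar medians. The 26 clusters of lowest id had a median pA minus control difference of 0.39, the middle 26 of 0.35 and the last 25 of 0.38. The means of these differences were 0.41, 0.35 and 0.34, highest in the clusters of lowest id. For 5'ss minus control the medians were 0.19, 0.14 and 0.20. Mean levels in the same 3 sets were 6.44, 6.29 and 6.20. Over the 77 clusters the Spearman correlation of id order with the pA minus control difference was -0.23, and that of the cluster's mean level with the difference was 0.057, both given as descriptions without a test. For PDGF-AA the medians in the same order were -0.11, -0.11 and -0.063 under control AMO and 0.22, 0.23 and 0.19 under pA AMO. The clusters above 0 were 3, 8 and 12 under control AMO and 25, 21 and 23 under pA AMO. Under 5'ss AMO they were -0.065, 0.046 and -0.12, where 11, 16 and 6 clusters were above 0.

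The paralog Hmcn2, read by cluster 10471139 and also coding for a large immunoglobulin-repeat matrix protein, had another profile. With control AMO it read 6.87 and 6.60 alone and 6.93 and 6.78 with PDGF-AA. With pA AMO it read 6.92 and 6.72 alone and 6.72 and 6.85 with PDGF-AA, and with 5'ss AMO 6.77 and 6.53 alone and 6.89 and 6.69 with PDGF-AA. The arrays of all AMOs overlapped, and replicate 1 was above replicate 2 in 5 of the 6 groups.

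Hmcn2 group means lay between 6.65 and 6.86. The highest was control AMO with PDGF-AA, the group in which Hmcn1 was lowest. Hmcn2 differed between pA and control AMO by 0.0066 (SE 0.098), between 5'ss and control AMO by -0.075 (SE 0.098) and with PDGF-AA by 0.073 (SE 0.080), and none passed (limma adjusted p of 1.00 each). Its correlation with the Hmcn1 mean over the 12 arrays was 0.085, and 4149 of 11283 genes compared lay above it. Whether the 2 genes differ in their response was not tested.

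Hmcn1 was not the only gene of many clusters. The table holds 999 genes with 2 or more clusters and 16 with 15 or more, and after Hmcn1 come the axonemal dynein Dnah3 with 33 and the chromatin remodeller Chd7 with 30. All clusters were higher with pA than with control AMO in 3 of these 16: Hmcn1, 4932438A13Rik (19 clusters, median 0.24) and Dnajc13 (15, median 0.17), an endosomal co-chaperone. In Dnah3 6 of 33 were above 0, in Chd7 20 of 30, and in Srsy, a gene with a mean level of 3.48, 0 of 19. Some Srsy clusters had identical means and differences, such as 10608573 and 10608576, so its 19 are not all separate readings. With 5'ss AMO all clusters were above 0 in Hmcn1, 4932438A13Rik, Dnajc13, the procollagen protease Adamts3 and the ubiquitin ligase Ltn1. There 0 of 19 were above 0 in Srsy and 0 of 19 in Nlrc5. The median correlation between clusters, 0.68 in Hmcn1, ran in the other 15 from 0.049 in Trdn to 0.85 in 4932438A13Rik.

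**Figure D5:**
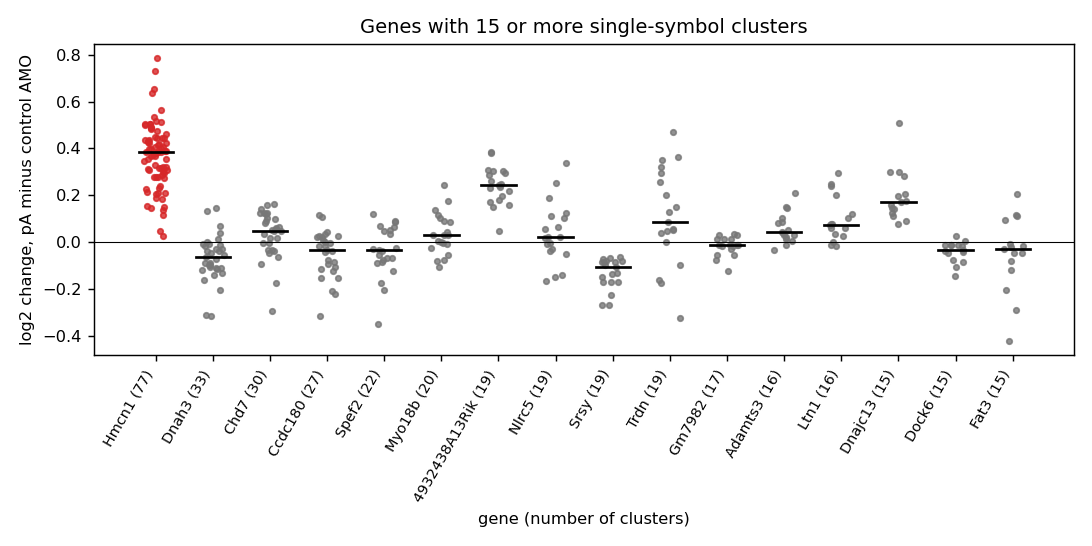
Log2 difference between pA and control AMO (vertical axis) for every cluster of the 16 genes with 15 or more single-symbol clusters, 1 point per cluster and a bar at the median. The 77 points of Hmcn1 all lie above 0, as do those of 4932438A13Rik and Dnajc13, while Dnah3 has 6 of 33 above 0 and Srsy 0 of 19.

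The genes whose profile over the 12 arrays was most like that of the Hmcn1 mean were sought among 11283 named genes above the 40 percent mark. The highest correlations were those of Sh3bgrl (0.89), the cold-inducible RNA-binding protein gene Rbm3 (0.88), the splicing factor gene Tra2a (0.86), the actin-capping subunit gene Capzb (0.85), the ubiquitin hydrolase gene Uchl1 (0.84), Arhgdib (0.83), the cathepsin K gene Ctsk (0.82), Raph1 (0.81), the hyaluronan receptor gene Hmmr (0.81) and Zc2hc1a (0.81). The lowest were those of the seipin gene Bscl2 (-0.89), Rabac1 (-0.87), Foxj2 (-0.86), the complex I subunit gene Ndufs7 (-0.86) and Idh3g (-0.84). These are the extremes of many correlations over 12 arrays of 1 normalization, so they are listed as a likeness and carry no test.

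The like genes differed from Hmcn1 in size. Between pA and control AMO Hmmr differed by 0.37 and Uchl1 by 0.28, while Sh3bgrl, Rbm3 and Tra2a differed by 0.09, 0.14 and 0.12. The AMO difference of Hmcn1, 0.37, was thus matched in size by Hmmr alone among these 10.

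Other genes of the matrix that hemicentin 1 belongs to were taken from 4 lists. Of the 6 fibulins, which share the C-terminal module with hemicentin 1, 5 were measured, and 2 were above 0 between pA and control AMO, with a median of -0.016. They ran from -0.042 in Efemp1 to 0.060 in Fbln7. Of 32 nidogens, laminins and other basement membrane genes 31 were measured, and 14 were above 0, with a median of -0.027, from -0.34 (SE 0.081) in Agrn, the proteoglycan agrin, to 0.15 in Hspg2, the proteoglycan perlecan. Of 14 elastic fibre and microfibril genes 13 were measured, and 6 were above 0, with a median of -0.015, from -0.14 in Ltbp3 to 0.19 in Mfap5.

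The 12 other matrix genes with a von Willebrand A domain had 6 above 0 and a median of 0.0097, from -0.16 in Coch to 0.33 (SE 0.13) in Col12a1, a collagen that sits on fibrils. Over all genes 43.9% were above 0 and the median was -0.014. In limma 0 members of the 4 lists were called, with or without the replicate block. Single members reached up to 0.33, beside the 0.37 of Hmcn1, a gene selected on these arrays.

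Between 5'ss and control AMO the counts above 0 were 2 of 5 fibulins, 12 of 31 basement membrane genes, 6 of 13 elastic fibre genes and 6 of 12 other von Willebrand A genes, against 45.1% of all genes, and 0 were called. Agrn was again lowest in its list, at -0.46 (SE 0.081), and Col15a1 highest, at 0.48 (SE 0.32). Col14a1, a fibril-associated collagen, was at 0.40 (SE 0.084) with 5'ss AMO and at -0.40 (SE 0.069) with PDGF-AA averaged over AMOs. Laminin alpha 2, Lama2, was at 0.26 (SE 0.069) and Fbln1 at -0.23 (SE 0.072) with PDGF-AA, where Hmcn1 was at 0.025.

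Marker lists of other cells were set beside Hmcn1. The mean of the 9 FAP markers measured lay between 11.02 and 11.29 on the 12 arrays and correlated at -0.12 with Hmcn1. The mean of 12 muscle genes ran from 6.61 to 7.71, and 9 of them were higher with pA than with control AMO, with a median of 0.18. Under pA AMO 0 of the 12 were higher with than without PDGF-AA, with a median of -0.43. Between pA and control AMO in the presence of PDGF-AA 5 of the 12 were above 0, with a median of -0.042. Over the 12 arrays the mean of the 12 muscle genes correlated at 0.068 with Hmcn1. The list means of 7 smooth muscle and pericyte, 6 adipocyte, 6 tendon, 7 endothelial, 8 macrophage and 3 Schwann cell genes correlated with Hmcn1 at 0.43, -0.33, -0.26, -0.26, 0.098 and -0.28. The adipocyte mean had the widest range of the marker lists over the 12 arrays, from 7.24 to 9.82.

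Between pA and control AMO 5 of 7 smooth muscle, 2 of 6 adipocyte, 3 of 6 tendon, 3 of 7 endothelial, 2 of 8 macrophage and 0 of 3 Schwann cell genes were above 0. In limma 0 members of the marker lists were called in any of the 14 contrasts. With the replicate block the tendon matrix gene Comp was called in 3: with PDGF-AA averaged over AMOs at -0.88 (adjusted p = 0.0346), for pA minus 5'ss AMO at -0.98 (adjusted p = 0.027), and for 5'ss minus control AMO in the presence of PDGF-AA at 1.37 (adjusted p = 0.0239). The proteoglycan Fmod was called with PDGF-AA averaged, at -0.53 (adjusted p = 0.0404). The part of these lists in the Hmcn1 differences was not tested.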

How the data were processed

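The authors deposited log2 values. The submitters' processing notes name RMA and Affymetrix Expression Console without a version. RMA corrects background, brings the arrays to a common distribution and combines a cluster's probes into 1 value, so a shift shared by most genes would be removed. Cluster symbols come from the platform annotation. Hmcn1 per array is the mean of its 77 clusters.

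In R 4.3.3, limma 3.58.1 fitted a means model of 6 groups on 12 arrays with 6 residual degrees of freedom, over 21789 clusters and again over 19938 gene means. Benjamini-Hochberg adjustment ran over each whole table, with a threshold of 0.05, for 14 contrasts. The code was tested on simulated data without a replicate effect, for PDGF-AA averaged over AMOs only. The simulated shifts were larger than any difference of the Hmcn1 mean, so that test does not cover the other contrasts or differences of this size. The number of arrays limits the precision.

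Replicate numbers recur in all groups. Deviations of same-numbered arrays correlated at 0.20 to 0.61 in all 15 pairs of groups, and 12 of 12 arrays were most like an array with their own number, so the numbers pair the arrays by a hint from the data, not the labels. Blocking on that number was an alternative.

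Named are the 3 brightest and 3 dimmest clusters, the first and last by id, those at the ends of the contrasts described, the ends of each list, and the 10 most and 5 least like genes. Clusters 10358648, 10358561 and 10358527 and the genes with many clusters were added after their values were seen. The gene, the lists and the tests were chosen with earlier results of these data known. Alternatives were the block, trend and robust moderation, array weights, all 35556 clusters, only those above the 40 percent mark, median centring, quantile normalization again, other summaries of a gene, fewer arrays in the fit, and leaving out each array.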

Additional observations from a re-analysis of the deposited data

Results flagged for a closer look

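The PDGF-AA differences of Hmcn1 had opposite signs under 2 AMOs. With control AMO the mean of the 77 clusters was lower with PDGF-AA in both replicates, at -0.138 and -0.0206, and with pA AMO it was higher in both, at 0.302 and 0.106. The test of the difference itself gave 0.28 (SE 0.18, limma adjusted p = 1.00), which did not pass. The control arrays with and without PDGF-AA overlapped, and the labels do not say what same-numbered arrays share. Without control AMO alone replicate 1 the PDGF-AA value with control AMO turned to 0.042, so the signs were no longer opposite. The difference between the 2 AMOs was then 0.16, and without replicate 2 of that group it was 0.40.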

How the results depend on the processing

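For Hmcn1, 0 of 77 clusters were called in each of the 14 contrasts under every alternative that was run. The log2 difference of its mean kept its sign in all alternatives other than leaving out an array. Between pA and control AMO it ran from 0.29 (the brightest cluster in place of the mean) to 0.37, and from 0.31 to 0.43 with arrays left out, with adjusted p from 0.461 to 1.00. With the replicate block, which uses the pairing of arrays by number, limma's adjusted p was 0.461 for pA and 0.399 for 5'ss against control AMO and 0.250 for pA against control AMO with PDGF-AA, and the block changed no call of Hmcn1 or Hmcn2. Leaving out 1 array turned the sign of 4 PDGF-AA values of Hmcn1: averaged over AMOs (-0.024 to 0.075), with control AMO (-0.20 to 0.042), with 5'ss AMO (-0.20 to 0.10), and the difference of that effect between 5'ss and control AMO (-0.12 to 0.18).

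For Hmcn2 it turned the sign of PDGF-AA with control AMO (-0.012 to 0.25) and with pA AMO (-0.14 to 0.066) and of pA against control AMO averaged (-0.060 to 0.073), without PDGF-AA (-0.049 to 0.22) and with it (-0.14 to 0.00073). It also did so for 5'ss against control AMO without PDGF-AA (-0.22 to 0.052), with it (-0.17 to 0.035), and for the difference of the PDGF-AA effects of these AMOs (-0.12 to 0.15). Repeated quantile normalization turned the averaged pA value of Hmcn2 to -0.0053. The cause of these sign changes was not tested. With 2 arrays in a group, a left-out array leaves a lone one, which is then assumed to vary like the other groups.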
